A study of Mus musculus with 6 samples.

Results

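The G1 gate is the point at which a cell either stays out of the cell cycle or commits to copying its DNA. Its central genes were followed here in a CPEB1 RNA immunoprecipitation experiment on mouse satellite cells (SCs), the stem cells of skeletal muscle. The members were taken by name as 3 families: the D cyclins Ccnd1, Ccnd2 and Ccnd3, the Cip/Kip inhibitors Cdkn1a, Cdkn1b and Cdkn1c, and the pocket proteins Rb1, Rbl1 and Rbl2. All 9 were present among the 55376 genes of the deposited tables.

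RIP-seq was performed on freshly isolated SCs sorted from C57BL/6 mice aged 3 months, and no group carried a genetic change or a drug treatment. RNA recovered with an anti-CPEB1 antibody (CPEB1 IP), RNA recovered with an anti-IgG control antibody (IgG) and total RNA taken without immunoprecipitation (Input) gave 2 libraries each, 6 in all. The design names 2 biological replicates of the CPEB1 immunoprecipitation, and the labels do not say how many animals stood behind each library. Libraries were made with SMART-seq2, an amplification method for small amounts of RNA, so p-values cover only the spread between these amplified libraries.

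D-type cyclins bind and activate the kinases Cdk4 and Cdk6, which phosphorylate the pocket proteins Rb, p107 and p130. Unphosphorylated pocket proteins hold E2F transcription factors in check and keep S phase genes silent, while Cip/Kip proteins (p21, p27 and p57) bind cyclin and kinase complexes and mostly block the kinases that act late in G1. CPEB1 is an RNA-binding protein that recognises U-rich cytoplasmic polyadenylation elements (CPEs) in 3′ untranslated regions (3′ UTRs) and controls poly(A) tail length and translation. In muscle, p27, p57 and Rb are known to restrain the division of SCs, and D cyclins take part as these cells leave quiescence.

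The CPEs of the members were read first, because a CPE is the sequence that CPEB1 is known to bind. The search used 9 motifs from the study's list of CPE-containing transcripts, on the sense strand only. Only part of that list, 146 entries, was at hand, so motifs named only in the rest of it were not searched. The canonical forms were TTTTAT and TTTTAAT, and the variants were TTTTACT and TTTTCAT and TTTTAAAT and TTTTAACT and TTTTAAGT and TTTTAATT and TTTTAAAGT. TTTTAAT lies inside TTTTAATT, and overlapping matches were counted as 1 site. Each of the 9 members held at least 1 site in an annotated 3′ UTR, as did 65.7% of the 21024 genes with one. Cdkn1b held 10 sites in a longest 3′ UTR of 3439 bases, Rb1 held 7 in 1709, Rbl1 held 7 in 1613 and Rbl2 held 6 in 1398. Ccnd2 held 4 sites in 5173 bases and Ccnd1 held 3 in 2676, while Ccnd3, Cdkn1a and Cdkn1c held 1 each in 915, 1334 and 688 bases.

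The density of sites was highest in the pocket protein genes. The pocket protein genes carried 4.10 sites per kb (Rb1), 4.34 (Rbl1) and 4.29 (Rbl2), higher than 88.0%, 89.5% and 89.2% of genes with a 3′ UTR. Cdkn1a carried 0.750 sites per kb, higher than 40.7% of genes, and the D cyclins carried 1.12 (Ccnd1), 0.773 (Ccnd2) and 1.09 (Ccnd3). Cdkn1b and Cdkn1c lay between, at 2.91 and 1.45. The motifs are mostly T and A, and these bases made up 63.3% (Rb1), 64.5% (Rbl1), 59.3% (Rbl2) and 62.3% (Cdkn1b) of the longest 3′ UTR. In the rest they made up 44.9% (Ccnd3) to 57.7% (Cdkn1c). Among genes whose 3′ UTR lay within 20% of the Cdkn1a length, 80.1% held a site. For the other members this share lay between 62.1% for Cdkn1c and 98.6% for Ccnd2. The median number of sites in such genes was 3 for Rb1 and Rbl1, 2 for Rbl2 and Cdkn1a, and 6 for Cdkn1b. It was 5 for Ccnd1, 9 for Ccnd2, and 1 for Ccnd3 and Cdkn1c. With canonical motifs alone, each member still held a site, and Ccnd2 went from 4 sites to 1.

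The sites below belong to the 3 members that were higher in CPEB1 IP than in IgG (Ccnd1, Ccnd3 and Cdkn1a), with 1 site each from Cdkn1b and Rbl2, the site nearest to the transcript end, for comparison. Each is a window of 30 bases written 5′ to 3′ on the sense strand of the gene, and the capitals mark the CPE match. Positions are those of the mm10 (GRCm38) genome with the GENCODE M21 annotation.
Ccnd1 (chr7:144932213-144932242, minus strand): gagttttgattcTTTTATatgtttttaaaa
Ccnd1 (chr7:144930718-144930747, minus strand): ccatgttcaagTTTTAATTtcctcatagag
Ccnd1 (chr7:144930666-144930695, minus strand): tgtacttttttTTTTAATTgtgatctattt
Ccnd3 (chr17:47599330-47599359, plus strand): tgccgtggtcaTTTTAATTtattgctttga
Cdkn1a (chr17:29099484-29099513, plus strand): tattatttgtgTTTTAATTtaaacgtctcc
Cdkn1b (chr6:134925290-134925319, plus strand): aagagatttttTTTTAATctagacaatata
Rbl2 (chr8:91123786-91123815, plus strand): ccgctactgtaaTTTTATatgaaaatatgt
The Cdkn1a site started 102 bases after the stop codon and ended 1225 bases before the annotated transcript end. The Ccnd3 site ended 343 bases before the transcript end, the last Ccnd1 site 746 bases, the Cdkn1b site 206 bases and the Rbl2 site 41 bases.

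**Figure D1:**
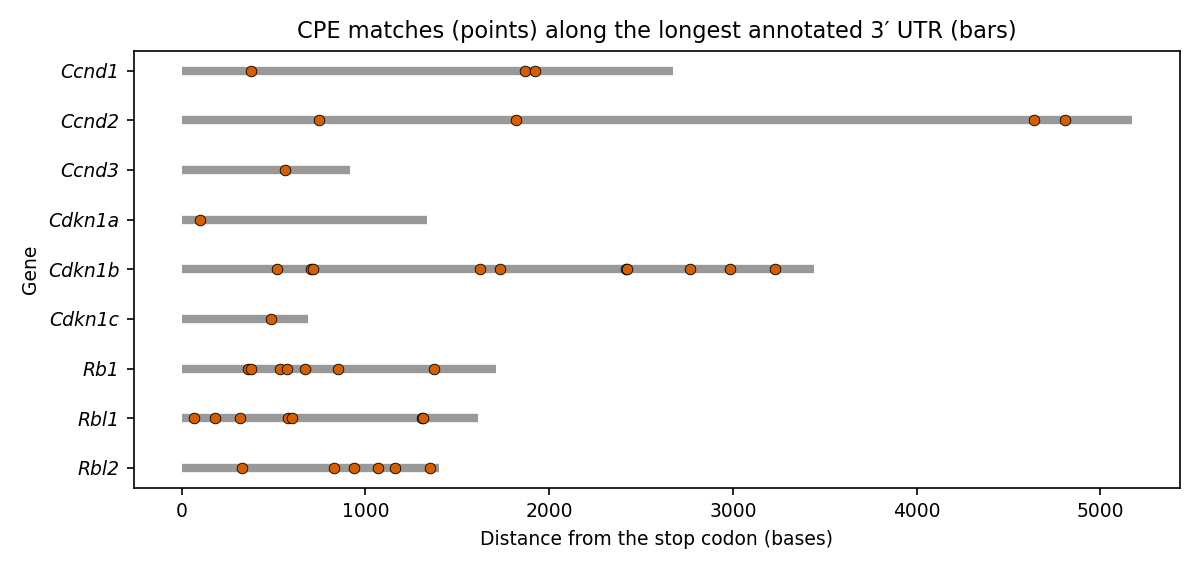
CPE matches along the longest annotated 3′ UTR of each member. Grey bars run from the stop codon to the transcript end in bases and orange points mark the start of a site: the only Cdkn1a site lies 102 bases from the stop codon, while Cdkn1b holds 10 sites and Rb1 holds 7.

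All 9 members lie on annotated protein-coding genes whose start and end in the deposited tables matched GENCODE M21. Ccnd1 (chr7:144929931-144939925, minus strand) shared 1100 exon bases, 23.4% of its own, with LTO1 on the opposite strand, and Ccnd3 (chr17:47505051-47599691, plus strand) shared 361, or 4.11%, with Bysl. Cdkn1a (chr17:29090976-29100727, plus strand) shared 273 exon bases, 7.68%, with an unnamed opposite-strand model. Other opposite-strand genes shared 30.7% of the Cdkn1c exon bases (Gm44732) and 9.17% (Aktip) and 11.8% (Gm45464) of those of Rbl2. In Rb1 the shares were 8.11% (Rcbtb2) and 6.78% (Lpar6), and in Ccnd2 3.95% (Gm43126) and 3.91% (9330179D12Rik). Cdkn1b and Rbl1 shared none. Reads from these stretches cannot be assigned to a strand, since SMART-seq2 does not mark it. LTO1 itself lay between 11.2 and 22.6 CPM (read counts scaled to a common library size) in the 6 libraries and Bysl between 60.0 and 112. Aktip lay between 28.4 and 50.1 CPM, Rcbtb2 between 17.5 and 42.2 and Lpar6 between 6.56 and 16.7.

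Counts on genes ran from 1284716 to 1359052 in IgG, 3270067 to 3314547 in Input and 2564323 to 4941653 in CPEB1 IP. The deposited FPKM values (fragments per kilobase of exon, scaled to sequencing depth) use a library total that also counts fragments outside genes, and genes held 39.1% to 39.5% of it in IgG but 69.5% to 79.8% in the other libraries. CPM values below are scaled by TMM, a method that sets the typical gene equal across libraries, and fold changes and p-values come from edgeR (quasi-likelihood test), with p-values adjusted by Benjamini-Hochberg over all genes tested. Scaling to the FPKM library total instead moved the median log2 fold change of all genes by 0.81 for CPEB1 IP against IgG, by -0.19 for CPEB1 IP against Input and by -0.88 for IgG against Input. Keeping genes with low counts moved it by 0.40, -0.03 and -0.27. Each fold change below is therefore relative to the typical gene. The SC label was checked against 9 marker genes, and Pax7 was present in every library, between 80.8 and 353 CPM. The 9 summed to 12100 to 13500 CPM in Input, 9250 to 9370 in IgG and 10100 to 12100 in CPEB1 IP. Much of each sum was Sdc4, with 5230 and 5850 CPM in Input, 5550 and 5560 in IgG, and 7130 and 5420 in CPEB1 IP.

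Per length, Cdkn1a was the most abundant member in every library. Its FPKM was 98.4 and 89.6 in the Input libraries, 89.2 and 86.9 in IgG, and 213 and 207 in CPEB1 IP. On this scale Input and IgG were close and both CPEB1 IP libraries lay above them. The closeness depends on the scale, since genes held 39.1% to 39.5% of the library total in IgG and 69.5% to 79.8% elsewhere. In TMM-scaled CPM the Cdkn1a means were 454.9 in Input, 782.3 in IgG and 1118 in CPEB1 IP. Cdkn1a encodes p21, the Cip/Kip inhibitor that p53 induces, and made up 85.2% to 95.5% of the summed Cip/Kip FPKM in the 6 libraries. In Input it was followed by Ccnd1 at 35.2 ± 3.59 FPKM (SD, n = 2) and Ccnd3 at 33.9 ± 0.0174, whose ranges overlapped. Cdkn1b (6.47 ± 1.85) and Cdkn1c (5.76 ± 2.88) came next and also overlapped, then Rbl2 (2.65 ± 0.0855) and Rb1 (2.58 ± 0.886), which overlapped too. Ccnd2 (1.64 ± 0.396) and Rbl1 (0.857 ± 0.494) were lowest. In IgG the order after Cdkn1a was Cdkn1c at 3.59 FPKM, Ccnd3 at 2.73, Ccnd1 at 2.47 and Cdkn1b at 2.41, and Ccnd1 overlapped with both Ccnd3 and Cdkn1b. In CPEB1 IP it was Ccnd1 at 7.65, Ccnd3 at 6.76, Cdkn1b at 5.66 and Cdkn1c at 5.08, where only the last pair overlapped.

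**Figure D2:**
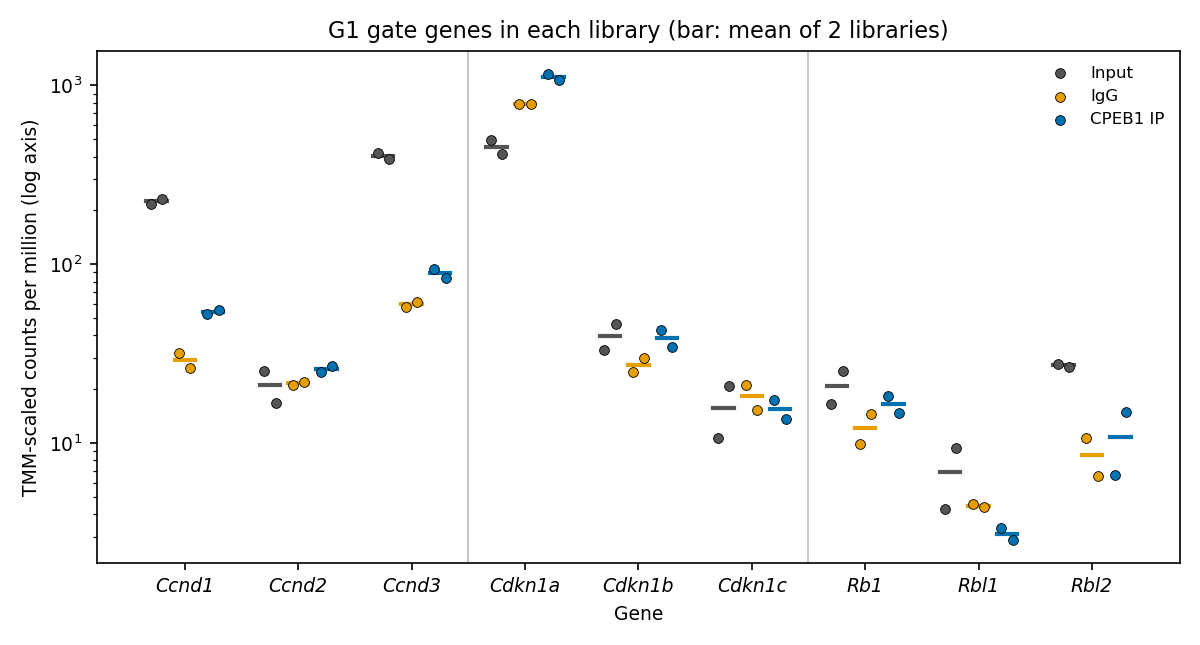
TMM-scaled CPM (log axis) of the 9 members, with 1 point for each of the 2 libraries of a group and a bar at their mean. Ccnd1 and Ccnd3 lie highest in Input and lowest in IgG, Cdkn1a lies lowest in Input and highest in CPEB1 IP, and the points of Cdkn1c overlap.

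Ccnd1 and Ccnd3, the main D cyclins of these cells, were lower in CPEB1 IP than in Input and lower still in IgG. Ccnd1 had 217 and 232 CPM in Input, 31.9 and 26.2 in IgG, and 52.5 and 55.3 in CPEB1 IP. Ccnd3 had 420 and 389 CPM in Input, 57.7 and 61.9 in IgG, and 93.8 and 84.0 in CPEB1 IP. For both genes the 3 groups did not overlap, and CPEB1 IP lay between IgG and Input in every library.

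Against Input, the Ccnd1 log2 fold change in CPEB1 IP was -2.00 (SE 0.14, adjusted p = 1.38e-06), or 4.01-fold lower. For Ccnd3 it was -2.14 (SE 0.14, adjusted p = 7.4e-07), or 4.42-fold lower. Of the 9 members tested in this comparison 3 were lower, beside 15.8% of 12171 genes, and 1 was higher, beside 17.0%. Ccnd3 was the 61st and Ccnd1 the 89th lowest of those 12171 genes. In IgG against Input, Ccnd1 stood at -2.95 (SE 0.21, adjusted p = 1.58e-14) and Ccnd3 at -2.76 (SE 0.17, adjusted p = 8.62e-16), the 15th and the 27th lowest of 12980 genes. Here too 3 of 9 members were lower, beside 19.4% of all genes, and 1 was higher, beside 21.4%. These comparisons share the Input libraries, and each shares libraries with CPEB1 IP against IgG, so the 3 are not independent. CPEB1 IP and IgG are RNA recovered from lysates, so these comparisons do not measure the number of cells or the RNA per cell. Pax7 (329 and 353 CPM in Input, 92.7 and 80.8 in IgG, 90.8 and 92.5 in CPEB1 IP) and Cdh15 (687 and 605, 79.8 and 73.6, 124 and 143) were also lower in both kinds of precipitate. Of the 9 SC markers 4 were lower than Input and 0 higher in CPEB1 IP, beside 15.8% and 17.0% of all genes. In IgG 7 were lower than Input and 0 higher, beside 19.4% and 21.4%. Sdc4 stood at 0.23 in CPEB1 IP and 0.00 in IgG. Set against IgG instead, CPEB1 IP had 4 of the 9 higher and 0 lower, beside 14.7% and 18.7% of all genes. There Cdh15 stood at 0.75 and Pax7 at 0.02. What these SC markers have to do with the D cyclin levels was not tested.

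Against IgG, the D cyclins were on the other side. Ccnd1 was higher in CPEB1 IP by 0.83 on the log2 scale (SE 0.20, adjusted p = 0.00367), or 1.78-fold, and Ccnd3 by 0.49 (SE 0.15, adjusted p = 0.0171), or 1.41-fold. With Cdkn1a, 3 of the 8 members tested were higher, beside 14.7% of 12124 genes, and 0 were lower, beside 18.7%. An unadjusted p under 0.05 was reached by no further member, and DESeq2 also put 0 members lower. The members' median log2 fold change was 0.38, beside -0.01 for all genes tested. Scaled to the FPKM library total, 7 of 8 members were higher and 0 lower, beside 59.0% and 7.73% of all genes. Both D cyclin calls were thin: with DESeq2 the adjusted p was 0.0538 for Ccnd1 and 0.136 for Ccnd3, and Ccnd3 also missed the threshold without CPEB1 IP replicate 1 (adjusted p = 0.152) or replicate 2 (0.0644).

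Ccnd2, the third D cyclin, did not share this pattern. It had 25.5 and 16.7 CPM in Input, 21.3 and 21.9 in IgG, and 25 and 27.0 in CPEB1 IP, so that Input overlapped with both other groups. Its log2 fold changes were 0.36 (CPEB1 IP against Input, adjusted p = 0.306), 0.03 (IgG against Input, 0.961) and 0.21 (CPEB1 IP against IgG, 0.579). Through the lower levels of Ccnd1 and Ccnd3, Ccnd2 made up 1.86% to 2.80% of the summed D cyclin FPKM in Input, 14.5% to 15.5% in IgG and 10.8% to 11.9% in CPEB1 IP.

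**Figure D3:**
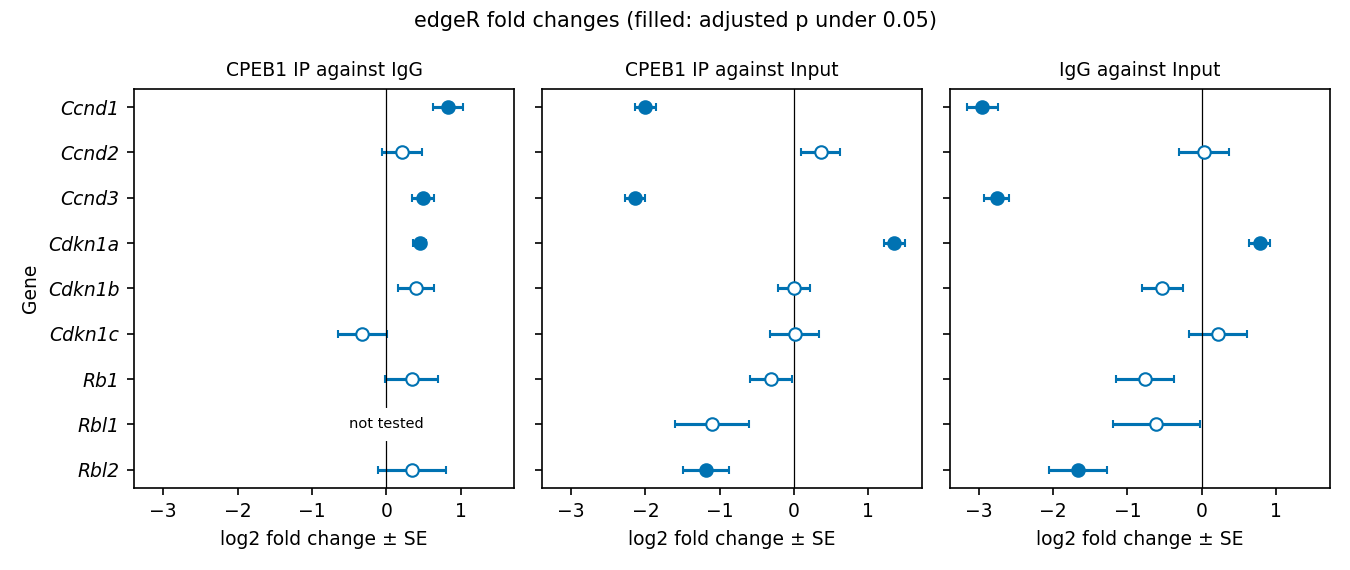
Log2 fold changes with SE from edgeR for the 9 members in the 3 comparisons, 2 libraries a group. Filled points passed an adjusted p of 0.05: Ccnd1, Ccnd3 and Cdkn1a against IgG, and Ccnd1, Ccnd3, Cdkn1a and Rbl2 in each comparison with Input.

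Cdkn1a went the other way from the D cyclins relative to Input. It had 494 and 416 CPM in Input, 782 and 782 in IgG, and 1158 and 1078 in CPEB1 IP, which rests on 1030 to 5221 counts a library. No groups overlapped, with Input lowest and CPEB1 IP highest. CPEB1 IP exceeded Input by 1.35 on the log2 scale (SE 0.14, adjusted p = 1.98e-05), or 2.54-fold, the 433rd highest of 12171 genes. It exceeded IgG by 0.45 (SE 0.09, adjusted p = 0.000729), or 1.36-fold, and this call was kept in all 11 alternatives, with adjusted p up to 0.00975. In size it was the 2145th highest of 12124 genes. IgG exceeded Input by 0.78 (SE 0.14, adjusted p = 1.87e-05), and with the FPKM library total that direction turned to -0.09 (adjusted p = 0.632).

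Cdkn1b and Cdkn1c, which encode p27 and p57, passed no test. Cdkn1b had 33.1 and 46.3 CPM in Input, 25.1 and 29.9 in IgG, and 42.9 and 34.5 in CPEB1 IP. Both CPEB1 IP libraries lay within the Input range and above IgG, and the difference from IgG was 0.40 (SE 0.24, adjusted p = 0.203). Cdkn1c had 10.7 and 20.8 CPM in Input, 21.3 and 15.3 in IgG, and 17.5 and 13.6 in CPEB1 IP, with all 3 groups overlapping. Against IgG it was the one member tested with a negative value, -0.32 (SE 0.33, adjusted p = 0.492), and that sign turned with the FPKM library total (0.48) and without the filter on low counts (0.08).

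Ratios between members within a library do not depend on how the libraries are scaled. Cdkn1a over Ccnd1, in FPKM, was 3.01 and 2.37 in Input, 32.5 and 39.5 in IgG, and 29.2 and 25.8 in CPEB1 IP. Cdkn1a over Ccnd3 was 2.90 and 2.64, 33.5 and 31.2, and 30.5 and 31.7. Both kinds of precipitate thus lay far above Input and close to each other, with the 2 groups overlapping for Ccnd3 and IgG higher for Ccnd1. Ccnd3 over Ccnd1 stayed between 0.815 and 1.27 in all 6 libraries. Ccnd1 over Ccnd2 was 17.0 and 27.8 in Input, 3.00 and 2.40 in IgG, and 4.20 and 4.09 in CPEB1 IP, with no overlap between groups.

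**Figure D4:**
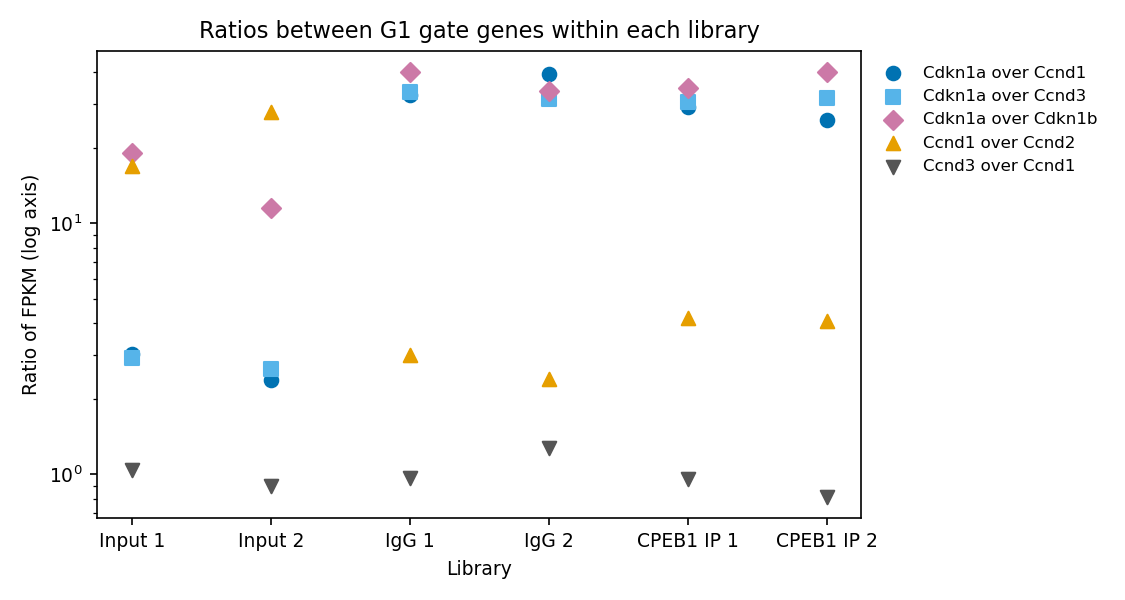
Ratios of FPKM (log axis) between pairs of members in each of the 6 libraries. Cdkn1a over Ccnd1 and over Ccnd3 lie between 2.37 and 3.01 in Input and between 25.8 and 39.5 in the precipitates, while Ccnd3 over Ccnd1 stays between 0.815 and 1.27.

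Among the pocket proteins, Rbl2, which encodes the p130 of resting cells, was lower in both kinds of precipitate than in Input. It had 27.6 and 26.8 CPM in Input, 10.6 and 6.56 in IgG, and 6.67 and 14.9 in CPEB1 IP. Input lay above all other libraries, and IgG and CPEB1 IP overlapped. The log2 fold change was -1.18 (SE 0.31, adjusted p = 0.012) for CPEB1 IP against Input, which missed the threshold without CPEB1 IP replicate 1 (adjusted p = 0.1). It was -1.66 (SE 0.39, adjusted p = 0.000761) for IgG against Input, and 0.35 (SE 0.46, adjusted p = 0.6) for CPEB1 IP against IgG, a value that turned to -0.40 without CPEB1 IP replicate 2. These values rest on 9 to 90 counts a library.

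Rb1, the retinoblastoma gene, had 16.6 and 25.2 CPM in Input, 9.87 and 14.6 in IgG, and 18.3 and 14.7 in CPEB1 IP. CPEB1 IP overlapped with Input and lay just above IgG, and no comparison passed the test (adjusted p = 0.426 against Input and 0.512 against IgG for CPEB1 IP, 0.118 for IgG against Input). Rbl1, which encodes the p107 of cycling cells, had 14 and 30 counts in Input, 6 and 6 in IgG and 8 and 14 in CPEB1 IP. It fell under the filter on low counts for CPEB1 IP against IgG and was not tested there. Against Input its value in CPEB1 IP was -1.10 (SE 0.50, adjusted p = 0.107) and did not pass. That value became -1.58 without Input replicate 1 and -0.45 without Input replicate 2, so its size hung on which Input library was kept. It rests on 30 counts or fewer a library.

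The study's criterion for a CPEB1-associated transcript is an FPKM ratio over 2 in each of the 2 experiments, together with an adjusted p from DESeq2 under 0.05. With 1 added to each FPKM and the adjusted p taken from edgeR, it was met by 12.1% of 12124 genes and by 2 members, Ccnd1 (ratios 2.21 and 2.82) and Cdkn1a (2.37 and 2.36). Just outside stood Ccnd3 with 2.18 and 1.99, and Cdkn1b with 2.22 and 1.72. With nothing added, an alternative chosen after seeing the data, the Ccnd3 ratios were 2.62 and 2.34, and 3 members passed, beside 13.8% of genes. With the adjusted p from DESeq2, which is the study's own test but was added here afterwards, Ccnd1 dropped out. Cdkn1a was then the 1 member left, beside 6.92% of genes. The median ratio of all genes tested was itself 1.45 and 1.52 on this scale. With TMM library sizes the median became 1.03 in both experiments, the ratios became 1.56 and 1.94 for Ccnd1 and 1.48 and 1.38 for Cdkn1a, and 0 members passed.

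The pathway around the members was read from 55 further genes in 6 lists. Against IgG, 44 were tested, 6 were higher in CPEB1 IP and 5 lower, with a median of 0.10, beside 14.7% and 18.7% of all genes. The lists as a whole thus did not stand above the share over all genes, and the genes named here are single values. Cdk4, the kinase partner of the D cyclins, was higher by 0.44 (SE 0.12, adjusted p = 0.00815), and Cdk6 stood at -0.01 (adjusted p = 0.973). Trp53, the inducer of Cdkn1a, was higher by 0.98 (SE 0.10, adjusted p = 6.23e-07), with 294 and 295 CPM in Input, 225 and 232 in IgG, and 455 and 483 in CPEB1 IP. Mdm4, which restrains p53, was lower at -0.62 (adjusted p = 0.000225). Among genes of protein turnover, Dtl, an adaptor of the ligase that degrades p21 in S phase, was lower at -1.69 (adjusted p = 0.000416) and Rbx1, a shared ligase subunit, higher by 0.54 (adjusted p = 0.00502). Foxo1, a transcription factor active in quiescent cells, was higher by 0.53 (adjusted p = 0.0253).

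Of the E2F and DP list 2 of 8 tested were lower in CPEB1 IP than in IgG, beside 18.7% of all genes, and 0 higher, beside 14.7%. E2f7, a repressor E2F, stood at -2.98 (adjusted p = 0.000337, on 3 and 6 counts against 18 and 8). It had 0.921 and 0.63 CPM in Input, 13.7 and 5.83 in IgG, and 1.25 and 1.24 in CPEB1 IP, so IgG was the group that stood apart. E2f2 stood at -1.59 (adjusted p = 0.0129, on 9 and 17 counts against 18 and 10). Ccne2, the cyclin that acts after the D cyclins, stood at -1.19 (adjusted p = 0.0465). Mcm4, a subunit of the replicative helicase, was higher by 0.67 (adjusted p = 0.0423). Of the 5 MuvB genes, which join p107 or p130 in the DREAM repressor complex, 0 passed in either direction (Lin37 stood highest at 1.07, adjusted p = 0.0911), and of the INK4 inhibitors Cdkn2c (0.44) and Cdkn2d (0.85) did not pass and Cdkn2a and Cdkn2b were too low to test.

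Against Input, 9 of 49 tested pathway genes were higher in CPEB1 IP and 12 lower, beside 17.0% and 15.8% of all genes. In IgG 6 of 48 were higher and 14 lower, beside 21.4% and 19.4%. In the S phase list 5 of 9 tested genes were lower and 0 higher in each of these comparisons. The 5 were Mcm2, Mcm3, Mcm4, Mcm5 and Mcm6, from -0.57 for Mcm6 to -3.22 for Mcm2 in CPEB1 IP and from -1.28 for Mcm6 to -3.38 for Mcm2 in IgG. Mcm2 had 23.9 and 23.6 CPM in Input, 1.52 and 2.91 in IgG, and 1.25 and 3.10 in CPEB1 IP. The other 4 genes tested did not pass, among them Mcm7 at 0.42 in CPEB1 IP and 0.25 in IgG. The kinases Cdk6 (0.43 in CPEB1 IP, adjusted p = 0.128) and Cdk2 (-0.25, adjusted p = 0.292) did not pass.

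**Figure D5:**
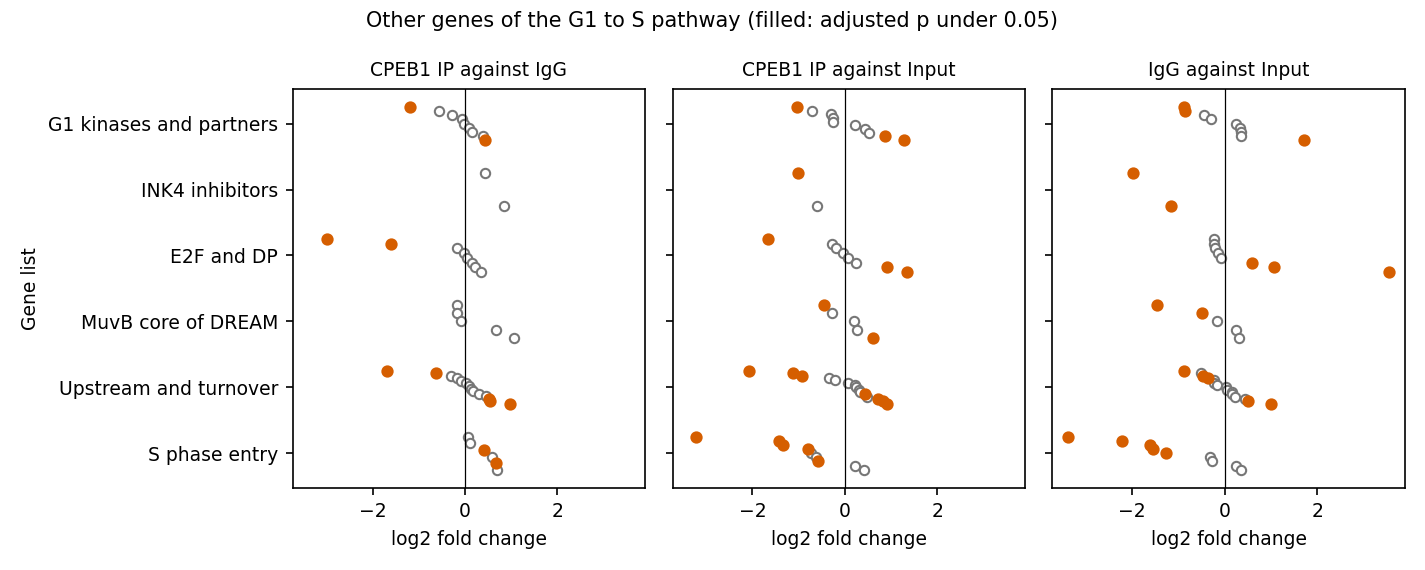
Log2 fold changes of the tested genes of 6 pathway lists in the 3 comparisons, with 1 point a gene. Filled points passed an adjusted p of 0.05. In the S phase list 5 of 9 are filled below 0 against Input in both CPEB1 IP and IgG, beside 15.8% and 19.4% of all genes. In the E2F list 2 of 8 are filled below 0 against IgG, beside 18.7% of all genes.

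Summed markers of other cells differed between Input and the precipitates, and the members of a list were not always alike. The counts of markers called stand beside 17.0% of all genes higher and 15.8% lower in CPEB1 IP against Input. For IgG against Input these shares were 21.4% and 19.4%. The 5 endothelial markers summed to 30.5 to 38.4 CPM in Input, 70.6 to 106 in IgG and 102 in both CPEB1 IP libraries. Of them 5 of 5 were higher in CPEB1 IP than in Input, and 4 of 5 in IgG. The 5 haematopoietic markers summed to 22.4 to 28.3, 56.1 to 63.8 and 66.7 to 71.2 CPM, with Cd52 at 0 in both Input libraries. Against Input, 1 of 3 tested was higher in CPEB1 IP (Lyz2) and 3 of 4 in IgG, and 0 were lower. The 5 myofibre markers summed to 67.4 to 72.7, 114 to 120 and 134 to 161. Of them 2 of 5 were higher in CPEB1 IP than in Input and 1 of 5 in IgG, the latter near the share over all genes. The 5 fibro-adipogenic markers, most of whose sum was Gsn, summed to 2060 to 2250 in Input, 1360 to 1370 in IgG and 1820 to 1890 in CPEB1 IP. Their members were mixed. Of 4 tested in CPEB1 IP against Input, Dcn (1.97) and Ly6a (1.79) were higher and Gsn (-0.44) was lower. In IgG 3 of 5 were higher and 1 lower. Their part in the Cdkn1a, Ccnd1 and Ccnd3 values was not tested.

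Likeness was measured as the distance between centred log2 CPM profiles over the 6 libraries, among 10308 genes with a mean of at least 5 CPM. Ccnd1 and Ccnd3 lay 0.469 apart, against a median distance of 2.98 from Ccnd1 to all genes, and Ccnd1 lay 3.20 from Ccnd2 and 4.11 from Cdkn1a. The 3 genes most like Ccnd1 were Rhoh (0.172), Tmem51 (0.181) and Hspa1a (0.287), and Hspa1a (0.356) was also the third nearest to Ccnd3 after Ccdc8 (0.337) and Glipr2 (0.348). Nearest to Cdkn1a were Tbrg4 (0.177), Srm (0.208) and Imp4 (0.209). Cdkn1b and Rb1 were the closest pair of members at 0.367, and the gene most like Cdkn1b was Foxo3 (0.173). For Ccnd2 the nearest were Adprhl2, Ralgds and Slc8b1, for Cdkn1c Socs6, Impad1 and Efnb2, for Rb1 Chmp5, Cab39l and Mcts1, and for Rbl2 Mccc2, Nqo2 and Tap1. These are descriptions of 6 libraries that fall into 3 groups.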

How the data were processed

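CPEB1 IP, IgG and Input RNA of mouse SCs (2 libraries each) were grouped by the labels. The authors mapped reads with HISAT to mm10 (GRCm38), used featureCounts to obtain raw counts per gene, which they deposited without normalization, together with the summed exon length as another column of that counting step. The authors also deposited FPKM, made from count, exon length and a library total. The annotation release, strand setting and treatment of multiply mapped reads are not given in the sources used here. The counts went into edgeR 4.0.16 under R 4.3.3 (filterByExpr, TMM, quasi-likelihood test, Benjamini-Hochberg over all genes tested, threshold 0.05), 2 groups at a time. The code was also run on simulated counts, with planted changes larger than those of the members against IgG. That run does not show how it performs at such smaller changes. DESeq2 1.42.0, other scalings, no filter on low counts, the replicate number as a block, all 6 libraries in 1 fit and each library left out were alternatives. Python 3.11.15 and pandas 2.3.3 were used elsewhere. SE is the log2 fold change divided by the square root of F. Likeness used log2 CPM with a prior count of 2, on named genes only. From the pathway lists, genes past the threshold in CPEB1 IP against IgG were named, up to 10 by size. Other pathway genes and the markers Pax7 and Cdh15 were named after their values were seen. 3′ UTRs came from GENCODE M21 protein-coding transcripts. The members and lists were chosen with earlier results of these data known.

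The FPKM ratio set CPEB1 IP over IgG by replicate number, as in the study's methods. With 2 libraries a group, no permutation test can reach the threshold. Depth is given by the counts on genes, and counting intervals were not used.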

Additional observations from a re-analysis of the deposited data

How the results depend on the processing

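Ccnd1 and Ccnd3 were lower than Input in CPEB1 IP and IgG, and Cdkn1a higher than Input and IgG in CPEB1 IP, under all 11 alternatives. With 9 to 90 counts for Rbl2 and 6 to 30 for Rbl1, the depth limits what can be seen of the pocket proteins. The cause of the changes below was not tested, except that fits without a library hold fewer samples, and there the lone library of a group is assumed to vary like the other group.

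For CPEB1 IP against IgG, the counts of higher and lower genes were 855 and 967 with DESeq2 (1 member higher) and 7149 and 937 with the FPKM library total (7 members higher), and 3513 genes were higher without the filter on low counts, among 42045 tested. Without a replicate they ran from 1054 to 1783 higher and 677 to 1750 lower. For CPEB1 IP against Input, 1235 genes were higher with the FPKM library total, and without a replicate 957 to 2646 were higher and 1064 to 2347 lower. For IgG against Input, DESeq2 gave 1695 higher and 1596 lower genes, the FPKM library total gave 1108 and 7180 (0 members higher and 7 lower), and without a replicate 1354 to 2170 were higher. The FPKM ratio was over the threshold in both experiments for 1 member when 5 was added in place of 1, 0 when TMM set the library sizes, 4 with a fold of 1.5, 3 when 0.1 was added, and 2 to 4 without a replicate. With the adjusted p as a further condition, 2 members passed with edgeR and 1 with DESeq2.

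With the replicate block the members called were 3 higher and 0 lower against IgG, and 1 higher and 3 lower in each comparison with Input, and the block changed no member's call. It gave 1739 higher and 2231 lower genes for CPEB1 IP against IgG. The group-centred values of same-numbered libraries correlated at r = -0.0107 (CPEB1 IP and IgG), -0.0206 (CPEB1 IP and Input) and 0.0324 (IgG and Input) across 14276 genes, which are not independent replicates. With 2 libraries a group, these values cannot tell whether same-numbered libraries belong to the same experiment. The study's methods set each CPEB1 IP against the IgG of its own experiment. 

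The sign turned in 21 cases, of which Cdkn1a in IgG against Input (-0.09, FPKM library total) was the only one with a call in the main test. For CPEB1 IP against IgG, Cdkn1c became 0.48 (FPKM library total) and 0.08 (no filter), and Rbl2 -0.40 (without CPEB1 IP replicate 2, in a range up to 0.80 over the libraries left out). For CPEB1 IP against Input, Cdkn1c became -0.06 (library size alone), -0.19 (FPKM library total), -0.02 (no filter), -0.04 (all 6 libraries), -0.42 (without Input replicate 1) and -0.14 (without CPEB1 IP replicate 1), in a range up to 0.54, and Cdkn1b 0.00 (replicate block), 0.23 (without Input replicate 2) and 0.13 (without CPEB1 IP replicate 2), in a range from -0.25. For IgG against Input, Ccnd2 became -0.84 (FPKM library total), -0.24 (no filter), -0.26 (without Input replicate 2) and -0.01 (without IgG replicate 2), in a range up to 0.39, and Cdkn1c -0.67 (FPKM library total), -0.06 (no filter), -0.16 (without Input replicate 1) and -0.06 (without IgG replicate 1), in a range up to 0.74.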
